A study of Mus musculus with 4 samples.

Results

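The 36 cell cycle and mitosis genes described here were taken by gene symbol from the 52636 genes counted in the series, and each of the 36 matched a single gene. They comprise 7 genes of the replication fork and its licensing, 4 of nucleotide supply, 8 cyclins and mitotic kinases, 8 of the kinetochore, chromosomal passenger complex, spindle and cytokinesis, 2 of mitotic exit, 3 chromatin genes of dividing cells and 4 inhibitors of cyclin-dependent kinases (CDK). RNA was sequenced from 4 libraries of sorted CD4+CD62L+CD25bright regulatory T cells of 7-week-old C57BL/6 mice. Of these, 2 were labelled Vav1R63W-Themis1-T-/- and 2 Vav1R63W, replicates 2 and 3 of each, so the Vav1R63W allele of the signalling adaptor Vav1 was shared by all 4 libraries and the comparison is of the added Themis1-T-/- genotype. The labels name no promoter or Cre line for that deletion, and no library of mice with unaltered Vav1 was analysed here. Nor do they tell whether replicates are different mice, and p-values then cover the spread among 4 libraries that could be technical.

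A dividing cell copies its DNA in S phase and parts the copies in mitosis. The MCM ring, made of the Mcm2 to Mcm7 proteins, unwinds DNA ahead of the replication fork, and PCNA clamps the polymerases to it. Cyclins A and B switch on CDK1, the Aurora and Polo kinases drive mitosis, and the kinetochore ties chromosomes to the spindle. Most regulatory T cells of the kind sorted here are resting cells, and transcripts of mitosis are made mainly in the few cells that are cycling.

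The 11 replication and nucleotide genes among the 36 were measured in every library. Most of the genes of mitosis were present in some libraries and absent from others. All 11 had over 3 reads in each of the 4 libraries, against 5 of the 21 genes in the mitotic roles. Those roles are the cyclins and kinases, the kinetochore group, mitotic exit and chromatin. Outside the 36, only 29 of 52 further replication genes had over 3 reads in all 4 libraries, against 17 of 78 further genes of mitosis. The summed level of the 7 replication genes was 1063 and 957 CPM, the reads of a gene scaled to 1000000 reads of library total, in the libraries labelled Themis1-T-/-, against 1035 and 1022 CPM in the Vav1R63W libraries. Values of a pair of libraries are given here and throughout for replicate 2 and then replicate 3. No single gene of the 36 passed the main test. By reads counted without regard to strand, 4 genes stood farthest from equality. Cenpo and Aurkb had no such reads in the libraries labelled Themis1-T-/-, and Ect2 and Top2a had them nearly only there. Counted by strand, Cenpo had 406 and 475 reads in those libraries, which cannot be told apart from reads of overlapping genes. On that count its log2 fold change was only -1.43. In bulk RNA, fewer cells of a type and less RNA per cell cannot be told apart.

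**Figure D1:**
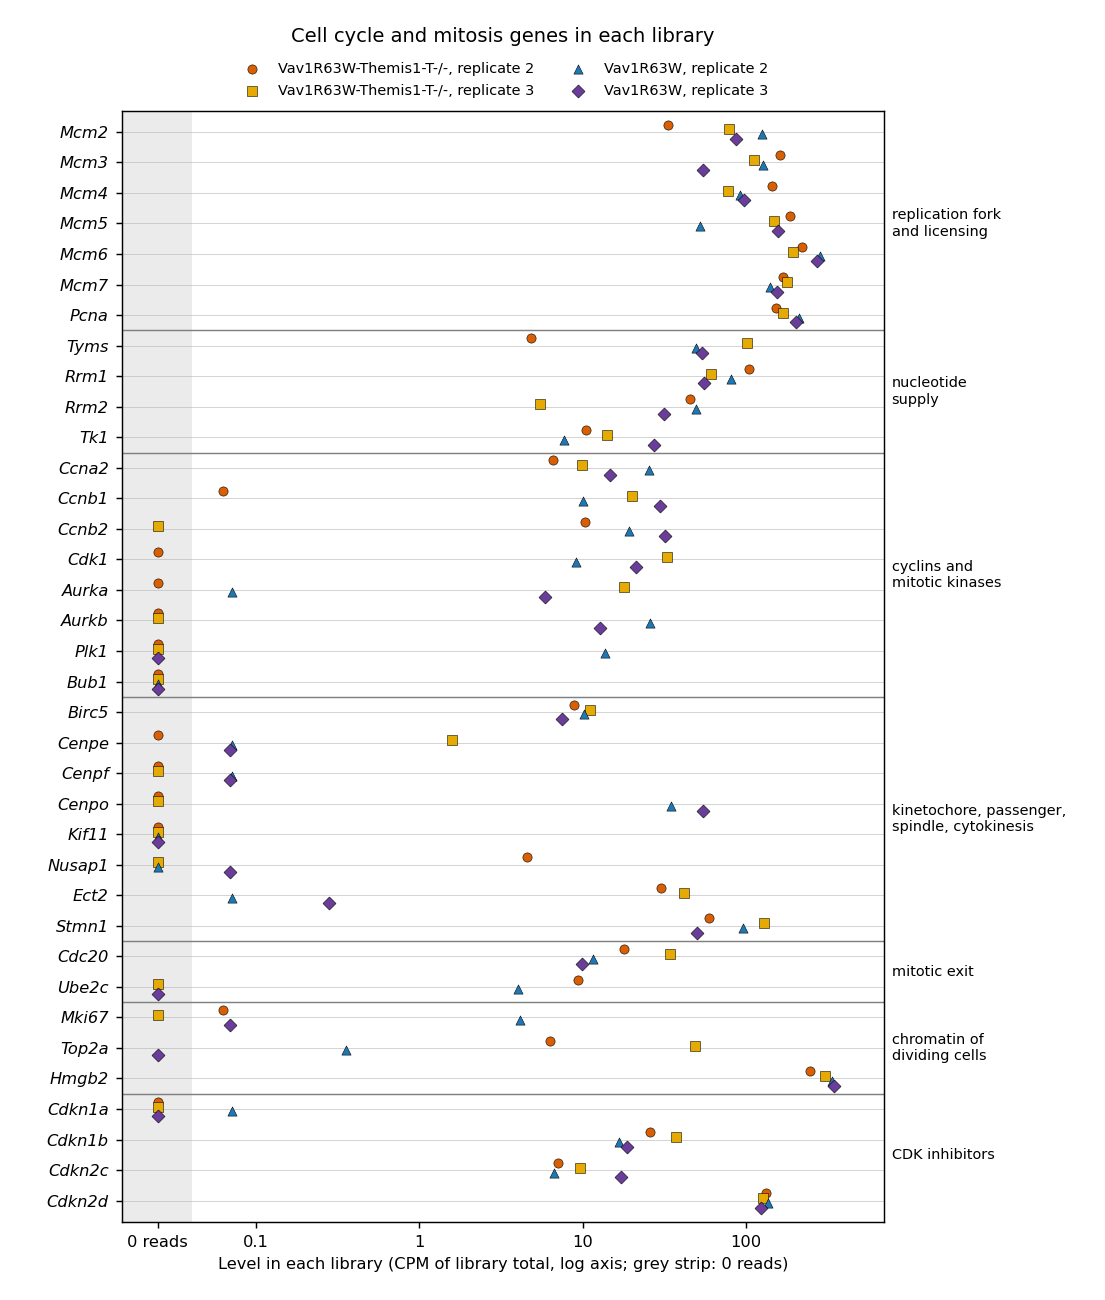
Level of each of the 36 genes in each of the 4 libraries, in CPM on a log axis, with 1 symbol per library and genes grouped by role; symbols in the grey strip stand for 0 reads. The 7 replication genes lie between 33.3 and 285 CPM in all 4 libraries. Cenpo and Aurkb have both symbols of the libraries labelled Themis1-T-/- in the strip, by reads counted without regard to strand.

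Reads in genes numbered 15953194 and 13963670 in the libraries labelled Themis1-T-/-, against 14003757 and 14398002 in the Vav1R63W libraries, and 12049 and 10809 genes had a read, against 12011 and 11722. Themis, the gene that encodes Themis1, had 685 and 0 reads in the libraries labelled Themis1-T-/- and 283 and 97 in the Vav1R63W libraries, so replicate 2 of the first group goes against its label, and every direction given here rests on the labels. Among regulatory and CD4 T cell markers, Foxp3 and Il2ra had reads in each library, and Cd3d, of the T cell receptor complex, was at 1354 and 1388 CPM in the libraries labelled Themis1-T-/-, against 1379 and 1362 CPM in the Vav1R63W libraries. The markers of immature thymocytes, led by Cd1d1 and Tcf12, summed to 195 and 108 CPM, against 144 and 175 CPM, with Rag1, Rag2, Ptcra, Cd8a and Arpp21 at 0 reads in all 4 libraries. Those of CD8 T cells, led by Cd8b1 and Prf1, summed to 68.3 and 19.4 CPM, against 52.9 and 64.3 CPM, with Cd8a, Gzmk and Crtam at 0. B cell and plasma cell markers, led by Ighm and Xbp1, summed to between 1556 and 1684 CPM over the 4 libraries, with Ms4a1, Pax5, Jchain and Sdc1 at 0. Myeloid markers, led by Ctss and Ly6c2, summed to between 762 and 1041 CPM with 9 of 12 at 0 reads, Lyz2 and Csf1r among them. Markers of NK and innate lymphoid cells, led by Nkg7 and Il1rl1, summed to between 119 and 166 CPM with Ncr1 and 3 others at 0. Erythroid markers, led by Hba-a1 and Car1, summed to at most 15.6 CPM. Replicate 3 labelled Themis1-T-/- had the fewest genes with a read and the lowest sums of the thymocyte and CD8 lists, and the part of either in the results was not tested.

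Of the 36 genes, 28 had enough reads to enter the edgeR quasi-likelihood test of Themis1-T-/- over Vav1R63W. The 8 that did not were Plk1, Bub1, Cenpe, Cenpf, Kif11, Nusap1, Mki67 and Cdkn1a. The test called 0 of the 28, and 0 of the 10216 genes tested overall (0.0%), at a Benjamini-Hochberg adjusted p under 0.05, with 0.900 as the smallest adjusted p, and also called 0 genes without any 1 of the 4 libraries. At an unadjusted p under 0.05 it had 4 of the 28, which were Aurkb, Cenpo, Ect2 and Top2a, beside 509 of all genes (4.98%). Limma-voom called 0 of the 28 as well, with 3 at an unadjusted p under 0.05. DESeq2, the tool the design text names, called these same 4 genes out of 30 with an adjusted p, beside 206 of 10748 genes (1.92%). It called Ect2 and Top2a higher, as 0.791% of all genes, and Aurkb and Cenpo lower, as 1.13% of all genes. With 1 library left out it called 7 members without either library labelled Themis1-T-/-, beside 20.2% of all genes without replicate 2 and 8.26% without replicate 3. It called 4 without Vav1R63W replicate 2 (6.12% of all genes) and 5 without Vav1R63W replicate 3 (4.04%). The authors' deposited table called 2 of the 26 members that have an adjusted p in it, Cenpo and Ect2, beside 123 of 7865 genes (1.56%). The fitted log2 fold change was above 0 for 16 of the 28 and below 0 for 12, with a median of 0.12, against 0.0019 over all genes tested. Setting Aurkb and Cenpo, whose fitted values have no bound, at their floor left that median at 0.12. That step could not move the median, since both genes stay below it. With limma-voom the median was -0.22.

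Levels of the 2 groups did not overlap for 13 of the 28 genes (46.4%), beside 33.8% of all genes tested. Mcm7, Ect2, Cdc20, Top2a and Cdkn1b were higher in both libraries labelled Themis1-T-/- than in either Vav1R63W library, as were 15.1% of all genes tested. Mcm2, Mcm6, Pcna, Ccna2, Ccnb2, Aurkb, Cenpo and Hmgb2 were lower, as were 18.7% of all genes tested. With 2 libraries against 2, an exact two-sided permutation test cannot go below p = 0.333. For 17 of the 28 genes (60.7%) the gap between the libraries of a group was larger than the difference between the group means, as it was for 78.3% of all genes tested.

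**Figure D2:**
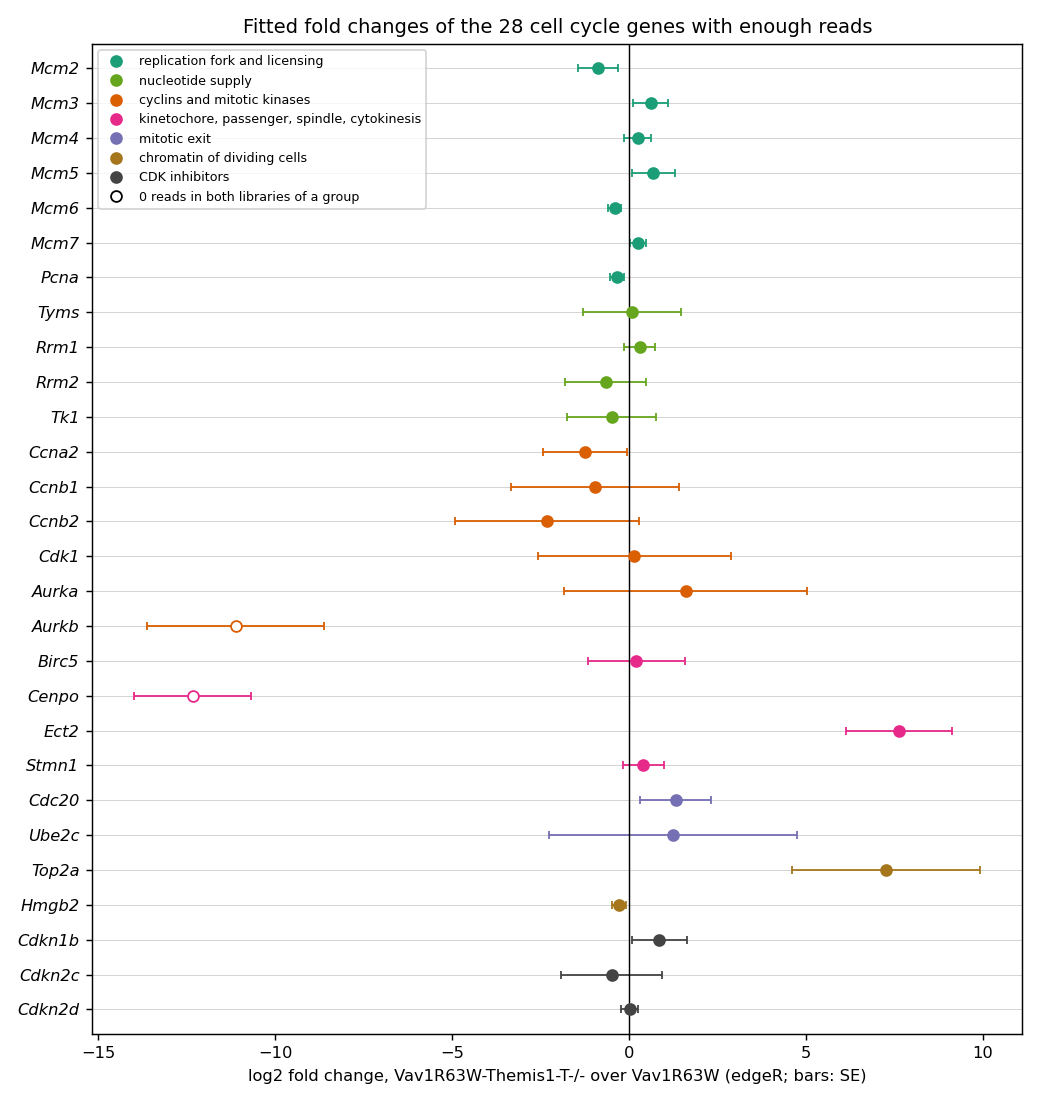
Log2 fold change of Vav1R63W-Themis1-T-/- over Vav1R63W fitted by edgeR for the 28 genes tested, with bars for the standard error (SE) and colours for the role; open symbols mark Aurkb and Cenpo, whose fitted values depend on a prior count because a group had 0 reads. Aurkb, Cenpo, Ect2 and Top2a lie more than 7 log2 units from 0, and the replication genes lie within 1 log2 unit of it.

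The summed level of the replication genes differed between groups by less than the gap between the libraries labelled Themis1-T-/-. It averaged 1010 ± 74.9 CPM in the libraries labelled Themis1-T-/- and 1029 ± 8.74 CPM in the Vav1R63W libraries (SD, n = 2 each). Mcm6 was at 219 and 195 CPM, against 285 and 272 CPM in the Vav1R63W libraries, and Pcna at 152 and 168 CPM, against 212 and 201 CPM. Both were lower in both libraries labelled Themis1-T-/-, with log2 fold changes of -0.41 ± 0.17 (SE) for Mcm6 and -0.34 ± 0.20 for Pcna and edgeR adjusted p-values of 1.000. Mcm7 was at 168 and 177 CPM, against 140.2 and 155 CPM, and its groups did not overlap in the other direction.

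The 6 proteins of the MCM ring act as a single hexamer, but their transcripts did not follow each other across the libraries. Mcm2 had 33.3 and 78.9 CPM in the libraries labelled Themis1-T-/-, against 126 and 87.0 CPM in the Vav1R63W libraries. Mcm5 had 186 and 148.5 CPM, against 52.2 and 156 CPM, so the Vav1R63W library with the most Mcm2 had the least Mcm5. Mcm3 had 161 and 112 CPM, against 128 and 54.4 CPM, and Mcm4 had 143 and 77.8 CPM, against 92.3 and 96.9 CPM. The highest library exceeded the lowest in reads by 4.06-fold for Mcm5, 3.31-fold for Mcm2 and 3.29-fold for Mcm3, but by 1.37-fold for Mcm7 and 1.47-fold for Mcm6.

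Among the genes that supply nucleotides, the sum was steady while single genes swung in opposite libraries. It was 166 and 182 CPM in the libraries labelled Themis1-T-/-, against 187 and 168 CPM in the Vav1R63W libraries. Tyms, thymidylate synthase, had 77 and 1412 reads, against 691 and 773 reads. Rrm2, the S-phase subunit of ribonucleotide reductase, had 727 and 77 reads, against 693 and 456 reads. Thus replicate 2 labelled Themis1-T-/- was lowest in Tyms and replicate 3 was lowest in Rrm2, and for each gene the other library of that group lay above at least 1 Vav1R63W library. Rrm1, the large reductase subunit, had 105 and 61.4 CPM, against 80.7 and 55.4 CPM, and Tk1, thymidine kinase, had 10.5 and 14.04 CPM, against 7.64 and 27.2 CPM. DESeq2 without replicate 2 labelled Themis1-T-/- called Tyms and Rrm2 (adjusted p = 0.0402 and 0.000465), and without replicate 3 it called Tyms in the other direction (adjusted p = 2.05e-07).

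**Figure D3:**
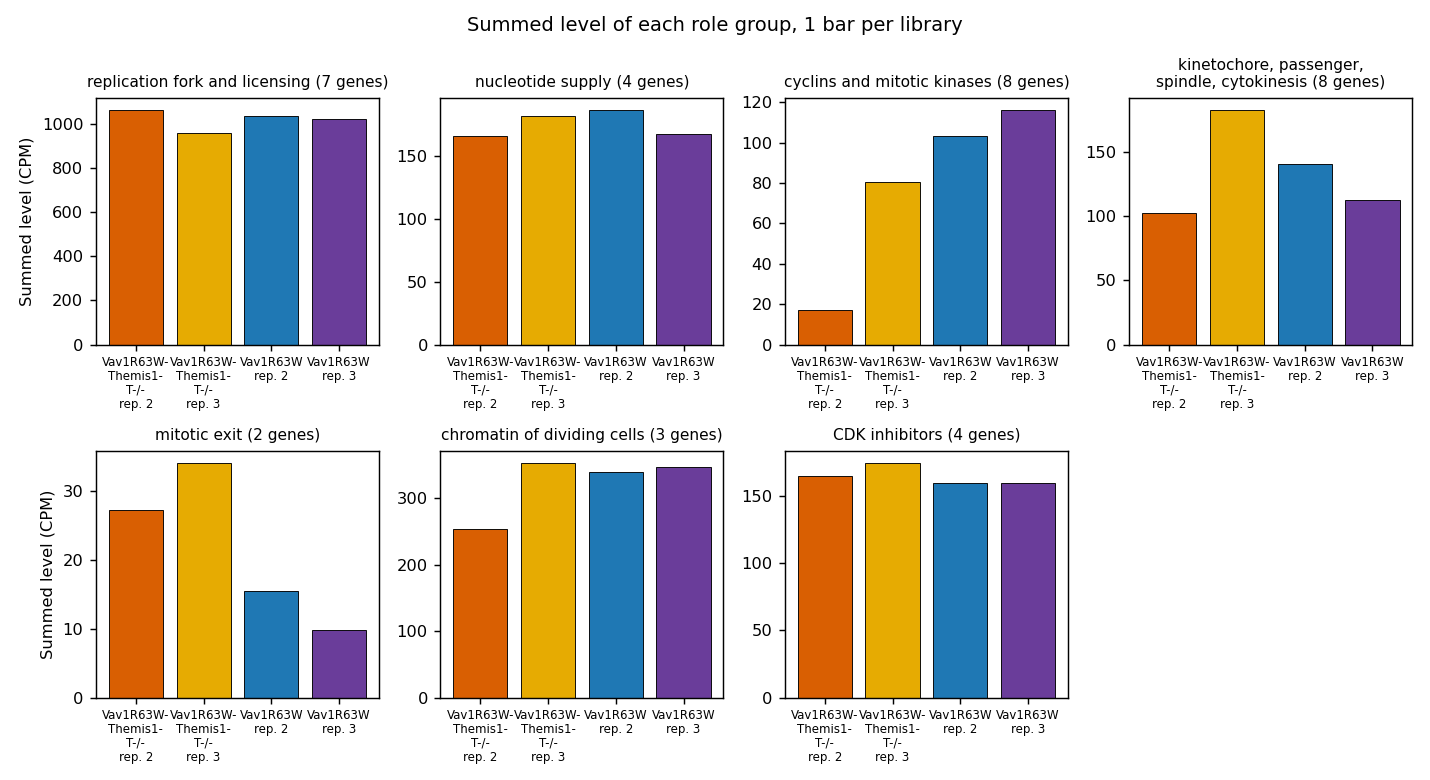
Summed level of the genes of each role, in CPM from 0, with 1 bar per library and the libraries labelled Vav1R63W-Themis1-T-/- on the left. The 4 bars of the replication genes lie between 957 and 1063 CPM, while the cyclins and mitotic kinases range from 17.0 to 116 CPM and are lowest in both libraries labelled Themis1-T-/-. The bars of mitotic exit and of the CDK inhibitors are highest in both libraries labelled Themis1-T-/-.

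The cyclins and mitotic kinases had a lower summed level in both libraries labelled Themis1-T-/-, at 17.0 and 80.6 CPM, against 103 and 116 CPM in the Vav1R63W libraries. The gap between the first pair was larger than the difference of the group means, which were 48.8 ± 45.0 and 110 ± 9.25 CPM (SD, n = 2 each). Of the 8 genes, 2 and 4 had over 3 reads in the libraries labelled Themis1-T-/-, against 6 in each Vav1R63W library. Different genes were missing from different libraries. Cdk1, the kinase that starts mitosis, had 0 and 460 reads, against 127 and 307 reads. Ccnb1, its partner cyclin B1, had 1 and 279 reads, against 140 and 430 reads, and so lacked reads in the same library as Cdk1. Ccnb2, cyclin B2, had 165 and 0 reads, against 270 and 458 reads, and lacked them in the other one. The cyclin A2 gene Ccna2 had 105 and 138 reads, against 356 and 212 reads, and was the only gene of this role with over 3 reads in all 4 libraries. Other role sums separated in the opposite direction. Mitotic exit summed to 27.2 and 34.2 CPM, against 15.5 and 9.86 CPM. The CDK inhibitors summed to 164.9 and 174.7 CPM, against 159.2 and 159.5 CPM. Over the 21 genes of the mitotic roles the groups overlapped, at 400.5 and 651.5 CPM, against 599.2 and 585.8 CPM.

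Aurkb, the kinase of the chromosomal passenger complex (GRCm38 chromosome 11, 69045647 to 69051664, plus strand), had 0 reads in both libraries labelled Themis1-T-/-, against 361 and 183 reads in the Vav1R63W libraries. That is at least 95.5-fold lower against a floor of 3 reads per library, from a Vav1R63W mean of 19.2 ± 9.24 CPM (SD, n = 2). The edgeR adjusted p was 0.900 and the DESeq2 adjusted p 0.000362, and the authors' deposited table gives 0.126. Without Vav1R63W replicate 2, the DESeq2 adjusted p was 0.0663. Its reads did not change in the strand columns, where Aurkb again had none in either library labelled Themis1-T-/-. Birc5 encodes survivin, a partner of Aurora B in the same complex. It had 142 and 155 reads, against 142 and 108 reads, with overlapping groups.

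The other kinases had over 3 reads in at most 2 libraries. Aurka, the spindle pole Aurora kinase, had 0 and 249 reads in the libraries labelled Themis1-T-/-, against 1 and 85 reads in the Vav1R63W libraries. Plk1, the Polo kinase, had 0 reads in both, against 191 and 0 reads. Bub1, a kinase of the spindle checkpoint, had 0 reads in all 4 libraries, which allows up to 0.188 and 0.215 CPM, against 0.214 and 0.208 CPM, at 3 reads each. These limits and the intervals that follow cover counting error only, since PCR copies are not independent molecules.

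In the kinetochore and cytokinesis group, Cenpo and Ect2 stood apart in opposite directions. Cenpo, a protein of the inner kinetochore (chromosome 12, 4196004 to 4234294, minus strand), had 0 reads in both libraries labelled Themis1-T-/-, against 483 and 780 reads in the Vav1R63W libraries. It was at least 220.1-fold lower against the floor, from a Vav1R63W mean of 44.3 ± 13.9 CPM (SD, n = 2). The edgeR adjusted p was 0.900 and the DESeq2 adjusted p 3.16e-07. The authors' deposited table gives a log2 fold change of -2.30 with an adjusted p of 6.53e-07. On the same counts the fits here gave -11.8 with DESeq2 and -12.3 with edgeR, values without a bound because a group had 0 reads. The deposited fold change is thus not on the scale of the fits given here. The cause of this difference was not tested.

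These zeros hold for reads counted without regard to strand, and Cenpo did have reads in the strand columns. In those columns a read over a gene on the opposite strand is still counted for Cenpo, while in the unstranded column it is set aside as ambiguous. The strand columns held 406 and 475 Cenpo reads in the libraries labelled Themis1-T-/- that the unstranded column lacks, against 534 and 544 in the Vav1R63W libraries. Adcy3 and Ptrhd1, on the opposite strand, share 1380 and 252 bases of Cenpo exons. The library kit does not mark strand, so these reads cannot be told apart from reads of those genes. On the sum of the strand columns the log2 fold change of Cenpo was -1.43, with a DESeq2 adjusted p of 0.271 and an edgeR adjusted p of 0.893, so the DESeq2 call was lost. DESeq2 then called 3 of the 36 genes, Aurkb, Ect2 and Top2a, beside 1.9% of all genes.

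**Figure D4:**
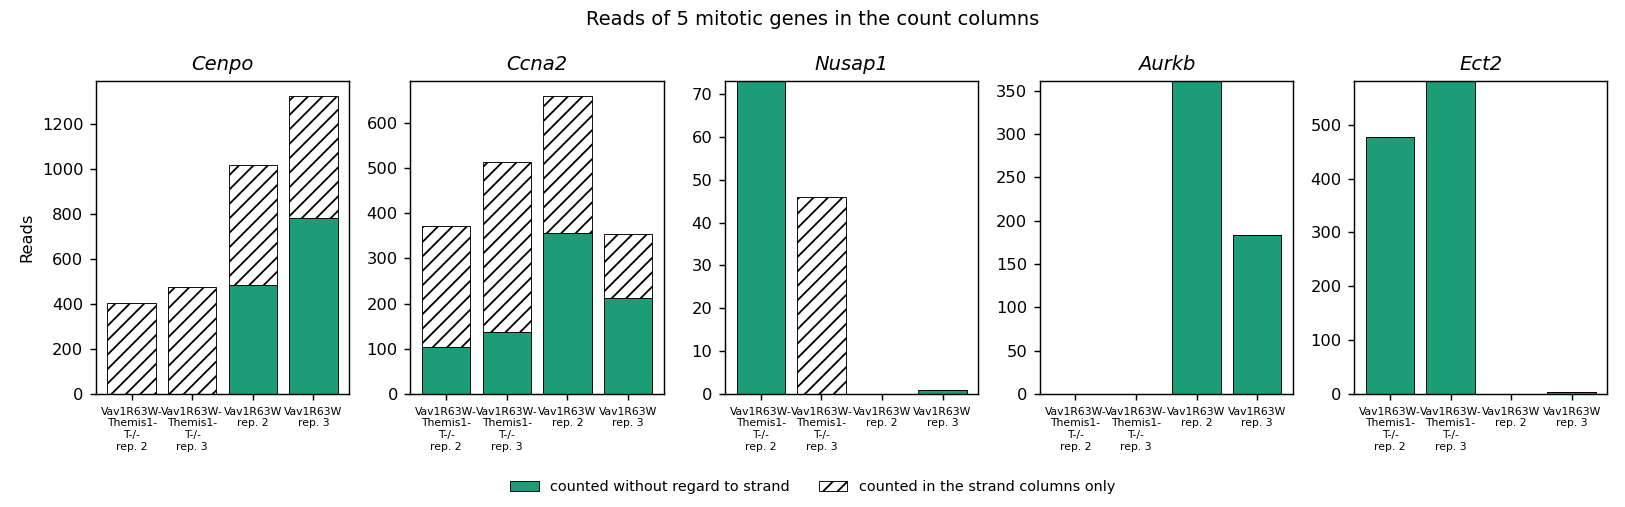
Reads of 5 mitotic genes in each library, with filled bars for reads counted without regard to strand and hatched bars for further reads counted only in the strand columns; each panel has its own axis from 0. Cenpo has 406 and 475 hatched reads and no filled ones in the libraries labelled Themis1-T-/-, whereas Aurkb and Ect2 have no hatched reads.

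Such overlap touched other members. Ccna2 had 267 and 374 strand-only reads, against 303 and 141, with Exosc9 as its neighbour on the opposite strand, and its edgeR log2 fold change was -1.25 in the unstranded column and -0.21 on the strand sum. Nusap1, a spindle microtubule protein, had 73 and 0 reads in the libraries labelled Themis1-T-/-, against 0 and 1 reads, and 46 strand-only reads in replicate 3 of the first group, where it overlaps Oip5. For Mcm7, Tk1, Plk1 and Cdc20 the strand-only reads numbered at most 97 in a library.

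Ect2, an exchange factor for RhoA that is needed for cytokinesis (chromosome 3, 27097222 to 27153878, minus strand), had 478 and 581 reads in the libraries labelled Themis1-T-/-, against 1 and 4 reads in the Vav1R63W libraries. It averaged 35.8 ± 8.23 CPM, against 0.175 ± 0.146 CPM (SD, n = 2 each). The ratio of summed reads was 201 (exact 95% binomial interval 85.9 to 620.5). The log2 fold change was 7.63 ± 1.49 (SE) with an edgeR adjusted p of 0.900, and the DESeq2 adjusted p was 7.51e-07. The authors' deposited table gives a log2 fold change of 1.92 with an adjusted p of 0.000127. DESeq2 here gave a log2 fold change of 7.70 on the same counts, so the deposited value is not on the same scale. With each library left out in turn, DESeq2 adjusted p-values of Ect2 ranged up to 6.15e-05 and those of Cenpo up to 0.000318.

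Of the other genes of this group, only Birc5 and Stmn1 had over 3 reads in all 4 libraries. Stmn1 encodes stathmin, which destabilizes microtubules. It was at 59.4 and 129 CPM in the libraries labelled Themis1-T-/-, against 96.1 and 50.4 CPM in the Vav1R63W libraries. Cenpe, a kinetochore motor, had 0 and 22 reads, against 1 and 1. Cenpf had 0 reads in both, against 1 and 1, and Kif11, the motor that parts the spindle poles, had 0 reads in all 4 libraries, so neither had over 3 reads in any library.

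Of the mitotic exit genes, Cdc20, an activator of the anaphase-promoting complex, had 285 and 477 reads in the libraries labelled Themis1-T-/-, against 161 and 142 reads in the Vav1R63W libraries. It averaged 26.01 ± 11.5 CPM, against 10.7 ± 1.16 CPM (SD, n = 2 each), with a log2 fold change of 1.32 ± 1.00 (SE) and an edgeR adjusted p of 1.000. Ube2c, the ubiquitin-conjugating enzyme of that complex, had 149 and 0 reads, against 56 and 0 reads, so each replicate 2 had it and each replicate 3 lacked it.

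Top2a, the topoisomerase that untangles chromosomes (chromosome 11, 98992943 to 99024189, minus strand), had 101 and 684 reads in the libraries labelled Themis1-T-/-, against 5 and 0 reads in the Vav1R63W libraries. The ratio of summed reads was 149 (exact 95% binomial interval 63.6 to 460.3), while the libraries labelled Themis1-T-/- differed from each other, at 6.33 and 49.0 CPM. Its log2 fold change was 7.27 ± 2.65 (SE) with an edgeR adjusted p of 0.998. The DESeq2 adjusted p was 0.00853, and 0.379 without replicate 3 labelled Themis1-T-/-. In the authors' deposited table it is 0.389. Mki67, which encodes the Ki-67 antigen of cycling cells, had 1 and 0 reads, against 58 and 1 reads. Hmgb2, a chromatin protein, had 247 and 305 CPM, against 335 and 347 CPM, and was lower in both libraries labelled Themis1-T-/- with an edgeR adjusted p of 1.000. Top2a and Mki67 both serve as proliferation markers, and their reads lay mostly in opposite groups, those of Mki67 in a single library.

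The CDK inhibitors, which hold cells out of division, had over 3 reads in all 4 libraries, except for Cdkn1a. Cdkn2d, which encodes p19, had 132 and 128 CPM in the libraries labelled Themis1-T-/-, against 136 and 124 CPM in the Vav1R63W libraries, and the highest library exceeded the lowest in reads by 1.18-fold, the least of the 19 genes with over 3 reads in all 4 libraries. Cdkn1b, which encodes p27, had 25.8 and 37.2 CPM, against 16.6 and 18.7 CPM, and its groups did not overlap, with a log2 fold change of 0.86 ± 0.78 (SE) and an edgeR adjusted p of 1.000. Cdkn2c, which encodes p18, had 7.08 and 9.67 CPM, against 6.64 and 17.2 CPM. Cdkn1a, which encodes p21, had 0 reads in both, against 1 and 0 reads.

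Per kilobase of annotated exon, over the 4 libraries, the order of mean levels began with Hmgb2 at 103 CPM, Cdkn2d at 82.5, Pcna at 76.3, Mcm6 at 52.0 and Stmn1 at 43.5 CPM per kilobase. Hmgb2, Cdkn2d and Pcna were neighbours whose libraries overlapped, from 82.3 to 116 for Hmgb2, from 78.6 to 86.3 for Cdkn2d and from 63.2 to 88.2 for Pcna. Of the mitotic genes other than Hmgb2 and Stmn1, the highest on this scale were Ccnb2 at 10.03 and Cdc20 at 9.82 CPM per kilobase, and Ect2, Aurkb, Cdk1 and Cenpo lay close together between 3.34 and 3.05.

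Absence from a library went with low mean level, among the 36 genes as among all genes. Part of this relation is fixed in advance, because the mean includes the libraries where a gene is absent. Plk1, for example, had 13.6 CPM in 1 library and a mean of 3.41 CPM. Of all genes with a mean of 1 to 5 CPM over the 4 libraries, 78.6% had at most 3 reads in at least 1 library. The share was 62.2% from 5 to 10 CPM, 38.5% from 10 to 20 CPM, 10.9% from 20 to 50 CPM, 0.504% from 50 to 100 CPM and 0% above. Of the cell cycle genes in these ranges it was 4 of 4, 2 of 3, 5 of 9, 1 of 3, 0 of 4 and 0 of 8. The 1 gene from 20 to 50 CPM was Cenpo, and the 5 from 10 to 20 CPM were Ccnb1, Ccnb2, Cdk1, Ect2 and Top2a. Replicate 3 labelled Themis1-T-/- had the largest share of genes with at most 3 reads in each range below 100 CPM, with 23.6% from 10 to 20 CPM, beside 5.91% in replicate 2 of that group, against 6.04% and 10.2% in the Vav1R63W libraries. The part of this absence of low genes in the differences between the groups was not tested.

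**Figure D5:**
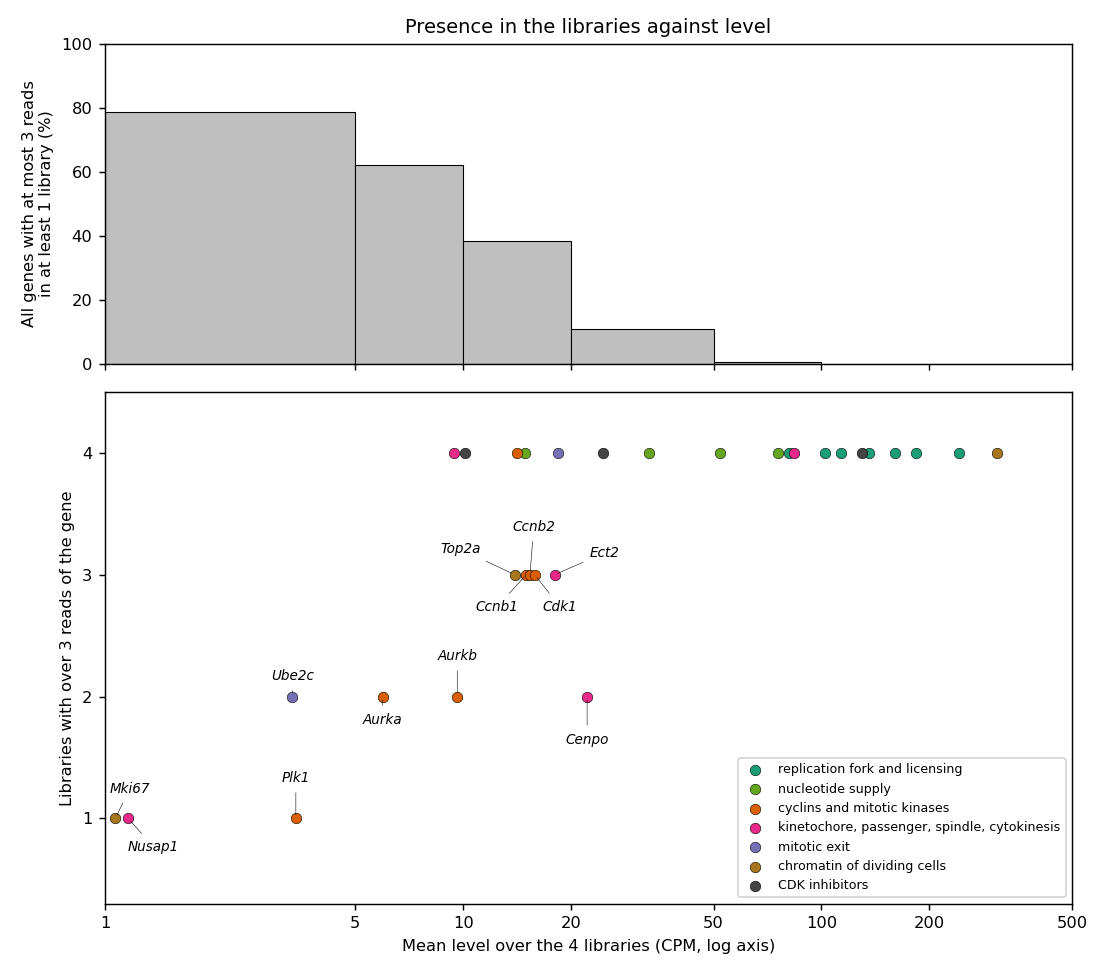
Top, share of all genes that had at most 3 reads in at least 1 of the 4 libraries, by mean level in CPM on a log axis; bottom, number of libraries with over 3 reads for each cell cycle gene with a mean of at least 1 CPM, coloured by role. The share drops to 0.504% from 50 to 100 CPM, and all cell cycle genes above 50 CPM were present in 4 libraries.

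The promoters of these genes are shown for 4 of them, because replication and mitotic genes are known to be switched on by different elements. E2F sites act on replication genes, while the cell cycle genes homology region (CHR) and CCAAT boxes act on many mitotic genes. The 250 bases before each gene's start in RefSeq promoters of GRCm38.p6, which hold 32 of the 36 genes, were searched on both strands. For Cenpo that start is not the end of the gene coordinates given above. Its window lies within those coordinates (4196004 to 4234294, minus strand), not before them. The CHR was searched as TTTGAA and also in the form TTCGAA. The CCAAT box was searched by its own letters. The E2F site was searched in 4 forms (TTTCCCGC, TTTCGCGC, TTTGCCGC and TTTGGCGC). Capitals mark the matches, which may overlap each other. Mcm6 stands for genes present in every library (chr1:128359706-128359955, minus strand), Top2a (chr11:99024190-99024439, minus strand) and Ect2 (chr3:27153879-27154128, minus strand) for those with reads nearly only in the libraries labelled Themis1-T-/-, and Cenpo (chr12:4233966-4234215, minus strand) for those with unstranded reads only in the Vav1R63W libraries.
Mcm6: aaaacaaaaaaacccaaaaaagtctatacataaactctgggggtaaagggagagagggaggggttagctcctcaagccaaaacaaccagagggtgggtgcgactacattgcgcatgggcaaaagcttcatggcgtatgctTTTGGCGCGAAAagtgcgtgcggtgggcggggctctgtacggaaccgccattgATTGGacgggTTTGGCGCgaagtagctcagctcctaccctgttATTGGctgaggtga
Top2a: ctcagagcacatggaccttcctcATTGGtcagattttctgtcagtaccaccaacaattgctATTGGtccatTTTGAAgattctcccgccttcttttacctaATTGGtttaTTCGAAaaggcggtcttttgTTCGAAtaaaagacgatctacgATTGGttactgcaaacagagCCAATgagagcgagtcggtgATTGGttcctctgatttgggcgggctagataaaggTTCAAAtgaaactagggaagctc
Ect2: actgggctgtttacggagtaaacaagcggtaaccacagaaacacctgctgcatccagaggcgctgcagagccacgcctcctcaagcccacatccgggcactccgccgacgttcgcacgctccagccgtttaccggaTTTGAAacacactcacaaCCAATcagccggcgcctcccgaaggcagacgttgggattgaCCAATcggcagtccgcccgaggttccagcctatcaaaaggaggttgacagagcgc
Cenpo: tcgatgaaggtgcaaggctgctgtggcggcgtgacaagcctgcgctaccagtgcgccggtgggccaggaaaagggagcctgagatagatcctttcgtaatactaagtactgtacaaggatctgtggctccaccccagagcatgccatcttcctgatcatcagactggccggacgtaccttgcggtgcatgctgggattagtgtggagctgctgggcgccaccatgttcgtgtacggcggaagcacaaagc

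A CHR was found before 9 of the 18 mitotic genes in the table and before 2 of the 10 replication and nucleotide genes, against 17.4% of all 27025 promoters. CCAAT was found before 15 of 18 and 8 of 10, against 34.5% of all. An E2F form was found before 1 of 18 and 3 of 10, against 1.91% of all. The E2F forms were narrowed from a larger set after seeing values, so these E2F shares are a description only. Of the 4 printed, Mcm6 holds 3 E2F matches and 2 CCAAT boxes, and Top2a holds 4 CHR matches and 6 CCAAT boxes. Ect2 holds 1 CHR match and 2 CCAAT boxes. Cenpo holds none of the 3 motifs in its window, and the bases before its GENCODE start were not searched. Ccnb2, which is not printed, holds 1 CHR match and 3 CCAAT boxes. Its level was lower in both libraries labelled Themis1-T-/-, so the motifs did not split by direction. A match is a description of the letters and not of binding.

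The wider lists of cell cycle genes had 0 genes called by edgeR in each, as for all genes. Of 52 further replication genes, 43 were tested, 20 with a log2 fold change above 0 and 23 below, with a median of -0.05. Orc3, of the origin recognition complex, had 117 and 47.3 CPM, against 33.3 and 14.3 CPM in the Vav1R63W libraries, and Rfc1, the large clamp loader subunit, had 35.5 and 39.4 CPM, against 8.07 and 18.5 CPM. Dbf4, the activator of the Cdc7 kinase, had 0 reads in both libraries labelled Themis1-T-/-, against 71 and 60 reads, and Gins1, of the replicative helicase, had 1 and 0 reads, against 176 and 112 reads. Of 78 further genes of mitosis, 38 were tested, 18 above 0 and 20 below, with a median of -0.05. Pbk, a kinase of dividing cells, had 118 and 57 reads, against 0 and 0, and Racgap1, which works with Ect2 in cytokinesis, had 641 and 809 reads, against 343 and 76. Wee1, which restrains CDK1, had 0 reads in both, against 45 and 45 reads, and Bub1b, of the spindle checkpoint, had 0 in both, against 114 and 135.

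Of 21 further centromere proteins, 14 were tested, 8 above 0 and 6 below, with a median of 0.25. Hjurp, a chaperone of the centromeric histone, had 49.9 and 186 CPM, against 19.9 and 90.5 CPM in the Vav1R63W libraries, and Mis18a had 58.0 and 127 CPM, against 66.4 and 64.7 CPM. Cenpk had 0 reads in both libraries labelled Themis1-T-/-, against 151 and 25 reads, but 58 and 28 on the strand sum, against 151 and 77. Cenpi had 39 and 0 reads, against 1 and 147. Of 34 genes of G1 control and quiescence, 29 were tested, 13 above 0 and 16 below, with a median of -0.05. Cdkn3 had 76 and 131 reads, against 0 and 0, and Tfdp1, the partner of E2F, had 95.7 and 87.2 CPM, against 72.3 and 44.1 CPM. Btg1, which restrains proliferation, had 1172 and 1127 CPM, against 1419 and 1430 CPM, with a log2 fold change of -0.29 ± 0.10 (SE) and an edgeR adjusted p of 0.927. Trp53 had 328 and 264 CPM, against 343 and 416 CPM. DESeq2 called 5 genes of the 4 lists beside 1.92% of all genes, named here because it called them: Gins1, Bub1b, Kif20a and Ndc80 lower and Cenpt higher. Among genes with an adjusted p, these were 1 of 46 replication genes, 3 of 54 genes of mitosis, 1 of 17 centromere proteins and 0 of 30 genes of G1 control. Ndc80, of the kinetochore, had 1 and 0 reads, against 555 and 36 reads. Kif20a, a motor of cytokinesis, had 0 reads in both, against 274 and 72 reads, but 130 and 293 reads on the strand sum, against 591 and 537. Cenpt had 0 and 352 reads, against 0 and 0, so its call rests on replicate 3 labelled Themis1-T-/- alone.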

How the data were processed

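RNA was measured by sequencing in 4 libraries, assigned to groups from their titles. FastQC, Trim Galore, STAR and MultiQC are named by the submitters' processing notes, where their versions are not stated. The annotation is Ensembl release 90 per the design text, but the genome build is mm9 per the notes, and the 2 are different mouse builds. STAR's deposited gene counts have 3 columns per library: unstranded, first strand and second strand. For all 52636 genes the unstranded counts were identical to those in the deposited series table. That table also holds the authors' fold change as a ratio, log2 fold change, p-values and adjusted p-values, per the file headers, made with DESeq2 per the design text. Its 4 normalized and 2 mean columns were not used. Summary lines held 22.6% and 23.1% of reads in the libraries labelled Themis1-T-/-, against 21.1% and 21.5% in the Vav1R63W libraries, and were left out.

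Symbols and coordinates came from GENCODE M21 (GRCm38) by gene ID, with 52403 IDs matched. The fit used edgeR 4.0.16 (R 4.3.3), TMM, filterByExpr (minimum count 10, total 15) and the robust quasi-likelihood F test, two-sided, with no block, adjusted over all genes. SE is the size of the log2 fold change over the root of F. The fit was tested on counts simulated with the same small spread for every gene. Many members varied more than that between libraries of a group, so the simulation does not show how the fit performs on them. Errors are SD over 2 libraries. Reads shared by near-identical copies of a gene can be assigned wrongly.

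Alternatives were default DESeq2 1.42.0, limma-voom (limma 3.58.1), size factors, no scaling, other filters, the strand columns, a replicate block and leaving out each library. DESeq2 had first been run with independent filtering at 0.05 in place of 0.1, without and then with rows that hold no read. Those runs, and DESeq2 on the strand sum or without a library, were added after seeing the data. The members, lists and rule for named genes (all members, the 2 genes of each wider list with the smallest p in each direction, the 2 highest of each marker list, except that some markers are not reported here) were chosen with earlier results of these data known. The level ranges, the count of libraries with over 3 reads, the printed promoters, the genes in the plot of strand columns and the E2F forms, narrowed from a larger set, were chosen after seeing values.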

Additional observations from a re-analysis of the deposited data

How the results depend on the processing

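The number of genes called, 0 with edgeR, was 0 under its other scalings, filters and count columns, with limma-voom, with the replicate block and without each library. DESeq2 called 206 genes and 4 members, 206 and 4 with rows without reads dropped and filtering at 0.05, 209 and 4 with that filtering alone, and 206 and 3 on the strand sum. With a library left out, DESeq2 called 2161 and 881 genes and 7 and 7 members without replicates 2 and 3 labelled Themis1-T-/-, against 628 and 414 genes and 4 and 5 members without Vav1R63W replicates 2 and 3. Apart from Tyms and Rrm2, these runs added Ccnb2 (adjusted p = 2.78e-05) without replicate 2 labelled Themis1-T-/-, Mcm2, Ccnb1 and Cdk1 without replicate 3, Mcm3 without Vav1R63W replicate 2 and Mcm5 without Vav1R63W replicate 3. The cause was not tested.

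Outside the runs that leave out a library, 6 of 364 log2 fold changes of members reversed: Tyms at -1.42 with limma-voom and -1.18 with the replicate block, Cdk1 at -3.90 and -3.48, Aurka at -0.20 with limma-voom and Cdkn2d at -0.016 in the second strand column. The 364 are refits of the same 4 libraries, most of them nearly alike, so this share says little about stability. All reversals but that of Cdkn2d came with limma-voom or the replicate block. Without each library, 12 of 28 members reversed in at least 1 run. The log2 fold changes then ranged from -0.24 to 0.60 for Mcm4, -3.42 to 1.02 for Tyms, -0.10 to 0.63 for Rrm1, -2.83 to 0.17 for Rrm2, -1.14 to 0.74 for Tk1, -8.14 to 0.079 for Ccnb1, -10.8 to 1.15 for Cdk1, -8.49 to 6.88 for Aurka, -0.30 to 0.91 for Stmn1, -7.79 to 9.08 for Ube2c, -1.03 to 0.39 for Cdkn2c and -0.017 to 0.067 for Cdkn2d. Left-out runs with DESeq2 reversed the same members, at -0.24 for Mcm4, -3.41 for Tyms, -0.096 for Rrm1, 0.178 for Rrm2, 0.74 for Tk1, 0.036 and 0.08 for Ccnb1, -10.4 and -0.343 for Cdk1, -8.04 for Aurka, -0.29 for Stmn1, -7.17 for Ube2c, 0.39 for Cdkn2c and -0.017 for Cdkn2d. Whether the replicate numbers pair the libraries was not settled. Deviations of same-numbered libraries from their group means correlated at r = -0.01 across 7373 genes, which cannot exclude pairing with 2 libraries per group. The block gave 0 calls, as did the fit without it, so the calls do not bear on pairing. Absence from at least 1 library was most common below a mean of about 20 CPM, a mean that absence itself lowers. It also held for 10.9% of genes from 20 to 50 CPM. A higher level did not ensure steady values. Tyms, at a mean of 52.2 CPM, differed 18.3-fold in reads between its highest and lowest library.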
